A study of Mus musculus with 4 samples.

Results

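The YTH-domain proteins read N6-methyladenosine (m6A), the methyl mark that is most often placed on internal adenosines of messenger RNA. The mouse genome encodes 5 such readers, Ythdf1, Ythdf2, Ythdf3, Ythdc1 and Ythdc2, and all 5 were found by gene symbol among the 25265 genes of the deposited count table. All 5 passed the filter on low counts, so that each was among the 21132 genes tested. The values come from testis of C57BL/6 mice at postnatal day 56. The labels give 2 libraries the genotype control and 2 the genotype Ythdf2-vKO. The series title describes the mutants as germ cell-specific. The labels name neither the driver of the deletion, nor the deleted exon, nor the alleles of the controls, and do not tie libraries to animals, so p-values measure the spread between these libraries, which may be technical. Total counts per library lay between 24862518 and 29561182. All 6 elongating spermatid markers and both general germ cell markers, Ddx4 and Dazl, had counts in every library.

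The family falls into the YTHDF and the YTHDC proteins. YTHDF1, YTHDF2 and YTHDF3 are close paralogs in the cytoplasm that bind methylated messages through a C-terminal YTH domain. YTHDF2 is known for recruiting the CCR4-NOT deadenylase to them, while YTHDF1 has been linked to translation and YTHDF3 to both processes. YTHDC1 is a nuclear reader linked to splicing and export of methylated RNA. YTHDC2 is an RNA helicase that works with MEIOC when male germ cells leave mitosis for meiosis. The comparison below asks how the targeted gene and its 4 relatives stood in the vKO-labelled libraries.

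The 3 YTHDF genes are similar enough that reads could in principle be shared, so their sequences are shown first, at the place where they resemble each other most. Over the aligned coding sequence, identity was 67.8% between Ythdf1 and Ythdf2, 69.4% between Ythdf1 and Ythdf3 and 69.4% between Ythdf2 and Ythdf3. The most conserved 60-base window within 1 exon has 47 bases in common to all 3 genes and lies in the exon that encodes the YTH domain. In GRCm38 it is at chr4:132204562-132204621 (minus strand, coding, exon 4 of 5) for Ythdf2, chr2:180911117-180911176 (minus strand, coding, exon 5 of 6) for Ythdf1 and chr3:16204935-16204994 (plus strand, coding, exon 5 of 6) for Ythdf3. Ythdf2 also has a pair of processed pseudogenes on chromosome X, Gm8401 (same window at chrX:70519002-70519061, plus strand) and Gm6823 (chrX:70421170-70421229, minus strand). The sequences are those of the GENCODE M21 transcripts, 5′ to 3′, and capitals mark the bases that differ from Ythdf2.
Ythdf2: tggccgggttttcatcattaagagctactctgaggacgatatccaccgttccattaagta
Ythdf1: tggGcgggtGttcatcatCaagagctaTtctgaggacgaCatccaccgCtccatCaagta
Ythdf3: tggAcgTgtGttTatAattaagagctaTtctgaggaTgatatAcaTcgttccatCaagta
Gm8401: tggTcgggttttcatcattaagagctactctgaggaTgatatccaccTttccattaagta
Gm6823: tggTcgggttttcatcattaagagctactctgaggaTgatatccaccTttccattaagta

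Even in this window Ythdf1 differed from Ythdf2 at 7 bases and Ythdf3 at 10, whereas each pseudogene differed at 3. The longest run of identical bases was 22 between the longest transcripts of Ythdf1 and Ythdf2 and 17 between Ythdf3 and either of them. None of the 100-base windows of the longest Ythdf1, Ythdf3 or Ythdc2 transcript occurred in a transcript of another gene. For Ythdf2, 58 of 4030 such windows (1.44%) occurred in Gm6823 or Gm8401, with which it shared an identical run of 129 bases. Neither pseudogene is among the genes of the deposited count table, so neither is analysed here. For Ythdc1, 506 of 6214 windows (8.14%) occurred in Gm43055, a long intergenic RNA gene annotated over the start of Ythdc1 on the same strand. Gm43055 is not among the genes of the count table either. How the counting treated reads with several matches or overlapping genes is not given in the sources used here, and its effect on the counts of Ythdf2 and Ythdc1 was not tested.

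The targeted gene was not lower in the vKO-labelled libraries. Ythdf2 (ENSMUSG00000040025, GRCm38 chromosome 4, 132184912 to 132212303, minus strand) had 1193 and 1604 counts in control replicates 1 and 2, while the vKO-labelled libraries held 1774 and 1807. After scaling to a common library size by the trimmed mean of M values (TMM), the controls stood at 51.0 and 53.5 CPM, a read count relative to library size, and the others at 66.3 and 67.0 CPM. Both vKO-labelled libraries lay above both controls, by at least 12.8 CPM. The group means were 52.3 ± 1.74 and 66.6 ± 0.502 CPM (SD, n = 2 each), a 1.27-fold difference with a 95% interval of 1.05 to 1.54. On the log2 scale the difference was 0.35 (SE 0.13), at an unadjusted p of 0.016 in the quasi-likelihood test of edgeR and 0.238 after Benjamini-Hochberg adjustment. Ythdf2 therefore did not pass the threshold of 0.05. The interval, which is not adjusted for the number of genes, lies wholly above no change, opposite to a loss of the transcript, so the groups are called by their labels throughout. The counts are totals per gene, so the exons behind them are unknown, and a deletion of 1 exon can leave the rest of the transcript to be counted.

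Ythdf1 (ENSMUSG00000038848, chromosome 2, 180904377 to 180920949, minus strand), the paralog linked to translation, was the family member whose values most resembled those of Ythdf2. Its counts of 744 and 999 in control compared with 1054 and 1072 in the vKO-labelled libraries, or 31.8 and 33.3 CPM against 39.4 and 39.7 CPM. The groups again did not overlap, with a gap of 6.05 CPM. The means of 32.6 ± 1.06 and 39.6 ± 0.256 CPM (SD, n = 2) gave a log2 fold change of 0.28 (SE 0.13, 95% interval -0.01 to 0.57), with an unadjusted p of 0.0556 and an edgeR adjusted p of 0.368. It did not pass the threshold.

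Ythdf3 (ENSMUSG00000047213, chromosome 3, 16183212 to 16217037, plus strand) showed overlapping groups. Its counts of 684 and 872 in control compared with 885 and 766 in the vKO-labelled libraries, which correspond to 29.3 and 29.1 CPM against 33.1 and 28.4 CPM. The controls were nearly equal, and the vKO-labelled libraries lay on either side of them. The log2 fold change was 0.07 (SE 0.14, 95% interval -0.23 to 0.38, edgeR adjusted p 0.869). Without vKO replicate 1 it was -0.04, so that the sign for Ythdf3 rested on 1 library.

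**Figure D1:**
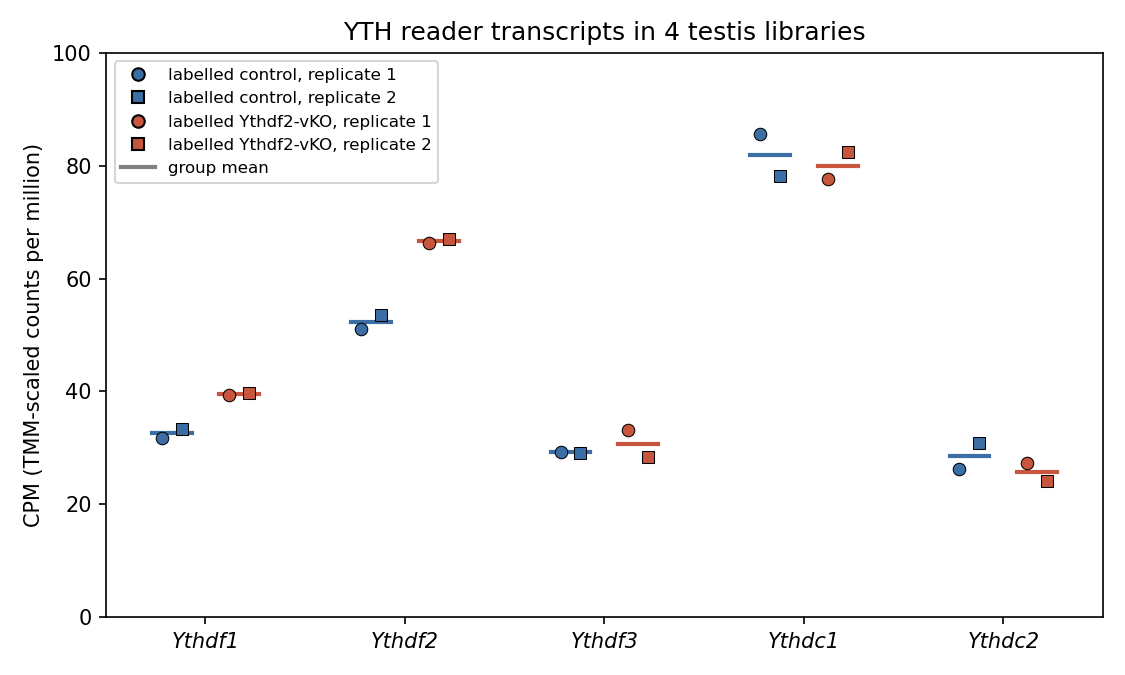
TMM-scaled CPM (y axis) of the 5 YTH readers (x axis) in each library, with circles for replicate 1, squares for replicate 2 and a bar at each group mean. The vKO-labelled libraries lie above both controls for Ythdf1 (39.4 and 39.7 against 31.8 and 33.3 CPM) and Ythdf2 (66.3 and 67.0 against 51.0 and 53.5 CPM), and the groups overlap for Ythdf3, Ythdc1 and Ythdc2.

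The nuclear reader Ythdc1 (ENSMUSG00000035851, chromosome 5, 86804221 to 86836659, plus strand) had the most reads of the family. Its counts of 2004 and 2341 in control compared with 2079 and 2222 in the vKO-labelled libraries, or 85.7 and 78.1 CPM against 77.7 and 82.4 CPM. Both vKO-labelled values lay below the higher control, and the lower control lay between them. The log2 fold change was -0.03 (SE 0.13, 95% interval -0.31 to 0.24, edgeR adjusted p 0.944). Its sign was positive with library totals alone, with an offset for GC content, and without control replicate 1 or vKO replicate 1, so no direction can be given for Ythdc1.

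Ythdc2 (ENSMUSG00000034653, chromosome 18, 44827746 to 44889724, plus strand), the helicase that works with MEIOC, had 612 and 923 counts in control against 731 and 651 in the vKO-labelled libraries. These were 26.2 and 30.8 CPM against 27.3 and 24.1 CPM. The 4.6 CPM between the 2 controls exceeded the 2.77 CPM between the group means, and the groups overlapped. The log2 fold change was -0.15 (SE 0.15, 95% interval -0.47 to 0.17, edgeR adjusted p 0.721). Leaving out control replicate 2, which held the highest value, brought the log2 fold change of Ythdc2 to -0.03, and leaving out control replicate 1 brought it to -0.27.

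Across the family, 0 of the 5 readers passed an adjusted p of 0.05, where 83 genes, or 0.393% of all genes tested, passed by edgeR. The 83 became 1512 without control replicate 1, 1077 without control replicate 2 and 35 without vKO replicate 1, and 0 of the 5 readers were among them in each case. At an unadjusted p under 0.05 there was 1 reader, Ythdf2, against 14.1% of all genes (7.65% of all genes in its direction). A DESeq2 Wald test also called 0 of the 5, against 1.32% of the genes to which it gave an adjusted p. The groups did not overlap for 2 of 5 readers (40%), both higher in the vKO-labelled libraries, a share close to the 45.3% of all genes tested (22.7% of all genes in that direction). The median log2 fold change of the 5 readers was 0.07 and that of all genes was 0.00265. The log2 fold change of Ythdf2 was above that of 83.3% of all genes tested, that of Ythdf1 above 78.9%, and that of Ythdc2 above 29.5%. In the authors' deposited table the log2 fold changes of the readers ran from -0.15 for Ythdc2 to 0.35 for Ythdf2, with adjusted p-values from 0.292 for Ythdf2 to 0.972 for Ythdc1. The DESeq2 Wald test above gave the same values for the readers from the same counts, so the 2 are not separate evidence.

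**Figure D2:**
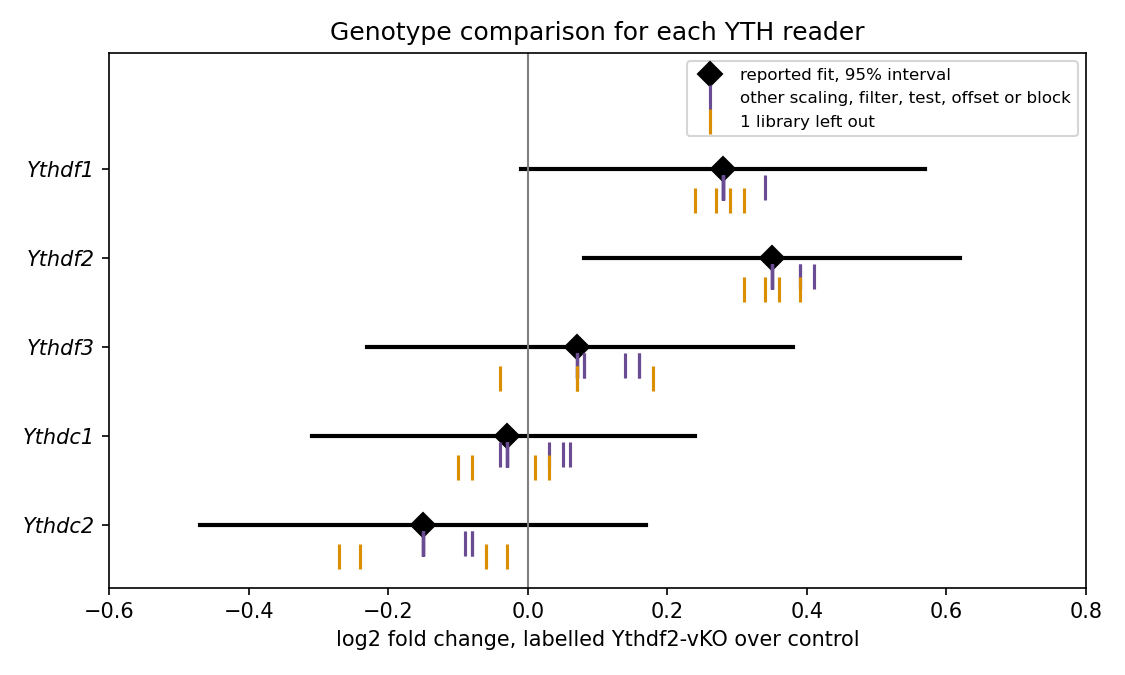
Log2 fold change of each reader, vKO-labelled libraries over control (x axis), with a diamond and its 95% interval for the reported fit, purple ticks for other scalings, filters, tests, offsets or the block, and orange ticks for fits with 1 library left out. The ticks of Ythdf2 (0.31 to 0.41) and Ythdf1 (0.24 to 0.34) stay above 0 and those of Ythdc2 (-0.27 to -0.03) below it, while those of Ythdf3 and Ythdc1 lie on both sides.

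Ratios between readers within a library do not depend on how libraries are scaled, and they were used to set the targeted gene against its relatives. The log2 ratio of Ythdf2 to Ythdf1 counts was 0.68 in both controls and 0.75 in both vKO-labelled libraries. The difference of 0.07 was about as large as its counting error of 0.06, so these data do not separate the difference seen for Ythdf2 from that for Ythdf1. The log2 ratio of Ythdf2 to Ythdf3 was 0.80 and 0.88 in control against 1.0 and 1.24 in the vKO-labelled libraries. The groups did not overlap, and their means differed by 0.28, with an SD of 0.17 between the vKO-labelled libraries. This difference for Ythdf3 was 0.16 without vKO replicate 2 and 0.40 without vKO replicate 1.

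Ythdf2 was also set against the YTHDC genes. The log2 ratio of Ythdf2 to Ythdc1 was -0.75 and -0.55 in control against -0.23 and -0.30 in the vKO-labelled libraries, a difference of 0.38. That of Ythdf2 to Ythdc2 was 0.96 and 0.80 in control against 1.28 and 1.47 in the vKO-labelled libraries, a difference of 0.50. In each of these 4 ratios both vKO-labelled libraries lay above both controls. All 4 hold the same Ythdf2 counts, so they are not separate observations. Among single genes tested, the groups did not overlap for 45.3%. Among reads of the 3 YTHDF genes, the share of Ythdf2 was 45.5% and 46.2% in control against 47.8% and 49.6% in the vKO-labelled libraries, and that of Ythdf3 was 26.1% and 25.1% against 23.8% and 21.0%. The share of Ythdf1 stayed within 28.4% to 29.4% in the 4 libraries. The 4 ratios and the share of Ythdf2 were tested over libraries. The two-sided exact permutation test gave p = 0.333 for each, before and after adjustment over the 5 tests, which is the smallest value that 2 against 2 libraries allow. These tests could therefore not pass a threshold of 0.05.

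**Figure D3:**
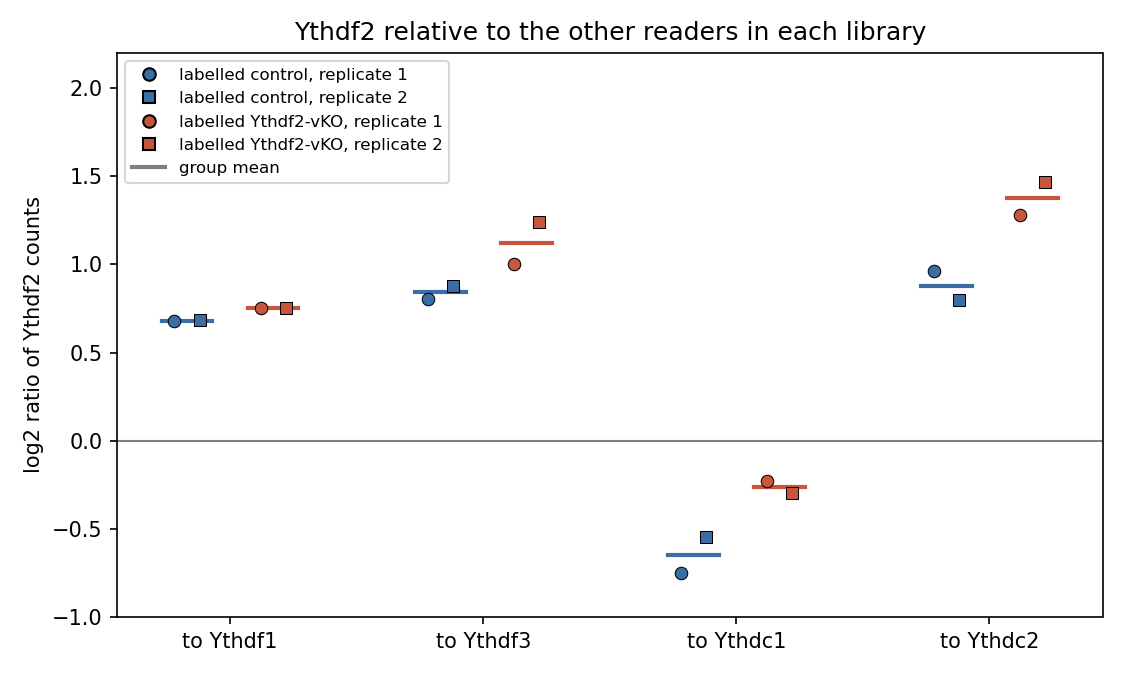
Log2 ratio of Ythdf2 counts to the counts of each other reader (y axis) in every library, with circles for replicate 1, squares for replicate 2 and a bar at each group mean. Both vKO-labelled libraries lie above both controls in each ratio, with mean differences of 0.07 against Ythdf1, 0.28 against Ythdf3, 0.38 against Ythdc1 and 0.50 against Ythdc2, whose order among the last 3 changes when 1 library is left out.

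The summed level of the YTHDF genes was 112 and 116 CPM in control against 139 and 135 CPM in the vKO-labelled libraries. For the YTHDC genes the sums were 112 and 109 CPM against 105 and 106 CPM. These sums are read counts not divided by length, so they compare libraries and not the YTHDF with the YTHDC genes. With TMM scaling neither sum overlapped between the groups, the YTHDF sum being higher and the YTHDC sum lower in the vKO-labelled libraries. Relative to library totals alone, the YTHDF groups still did not overlap, whereas the YTHDC groups did.

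Levels of different readers were compared only per length, as CPM per kb of annotated exon. In control, Ythdf2 stood highest at 11.4 ± 0.381 CPM per kb, followed by Ythdf1 at 9.82 ± 0.318, Ythdc1 at 6.00 ± 0.396, Ythdf3 at 5.44 ± 0.0233 and Ythdc2 at 3.21 ± 0.367 (SD, n = 2). In the vKO-labelled libraries the order was the same, from 14.6 ± 0.11 for Ythdf2 to 2.90 ± 0.253 for Ythdc2. Ythdc1 and Ythdf3, neighbours in this order, overlapped in the vKO-labelled libraries, with 5.69 and 6.03 CPM per kb against 6.16 and 5.29. The place of Ythdc1 depended on the length used. The union of its annotated exons is 13651 bases and its longest transcript 6313, and per kb of the longest transcript Ythdc1 stood at 13.0 ± 0.857 CPM per kb in control, overlapping Ythdf2 at 12.7 ± 0.422. Ythdf1, Ythdf3 and Ythdc2 kept their order among themselves with either length.

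**Figure D4:**
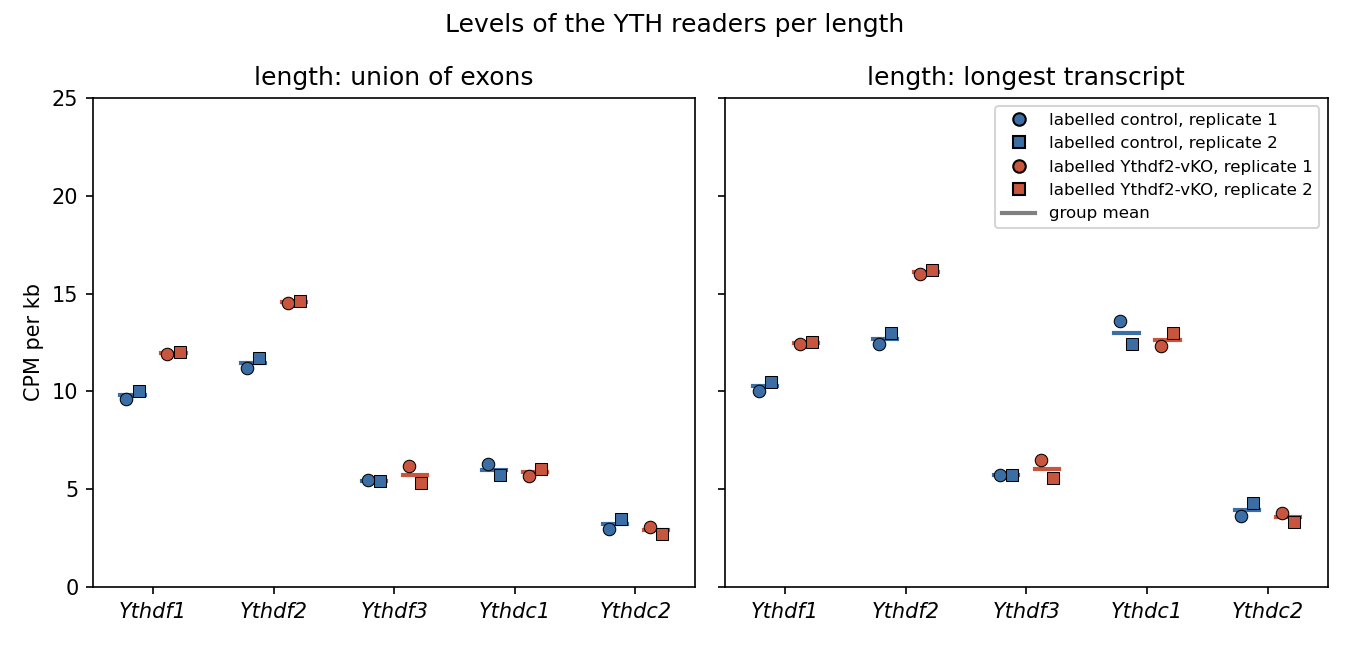
CPM per kb (y axis) of each reader in every library, divided by the length of the union of annotated exons (left) or of the longest annotated transcript (right), with circles for replicate 1, squares for replicate 2 and a bar at each group mean. Ythdc2 lies lowest in both panels, and Ythdc1 moves from about the level of Ythdf3 (6.00 against 5.44 in control) to that of Ythdf2 (13.0 against 12.7).

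The readers differ in features that bear on how they are counted. Transcript GC content was 49.1% for Ythdf1 and 46.1% for Ythdf2, against 38.4% for Ythdf3, 37.6% for Ythdc1 and 42.0% for Ythdc2, so that the pair whose groups did not overlap also had the highest GC content. Libraries differed in their relation to GC content. For each library, the departure of each gene from its mean over the 4 libraries was set against GC content over 17817 genes. The Spearman correlation was -0.40 in control replicate 2, 0.02 in control replicate 1, and 0.25 and 0.19 in the vKO-labelled libraries. With an offset for GC content the log2 fold change was 0.39 for Ythdf2, 0.28 for Ythdf1, 0.16 for Ythdf3, 0.05 for Ythdc1 and -0.08 for Ythdc2, with edgeR adjusted p-values from 0.177 to 0.916. Without the offset, the log2 fold change was 0.35 for Ythdf2 and 0.28 for Ythdf1. Whether GC content has a part in the group differences was not tested.

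Because the family reads m6A, the transcripts of the readers were also searched for GGACT, a common form of the sequence in which the mark is placed, on the transcript strand only. The longest transcripts held 5 matches in Ythdf2 (1.21 per kb), 9 in Ythdc1 (1.43 per kb), 3 in Ythdc2 (0.416 per kb), 1 in Ythdf1 (0.314 per kb) and 1 in Ythdf3 (0.196 per kb). The median over 15851 tested protein-coding genes was 1.04 per kb, and 91.8% of these genes had a match. Ythdf2 and Ythdc1 thus lay above the median and the other 3 readers below it. A match is a description of the sequence and shows no methylation.

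The 3 genes nearest to Ythdf2 by their pattern over the 4 libraries were Snapc4, a subunit of the complex that activates small nuclear RNA genes, Poc1a, a centriole protein, and Tprkb, a subunit of the KEOPS complex of tRNA modification. Nearness was the Euclidean distance of log2 CPM centred on each gene's mean, among 10351 other genes with a mean of at least 10 CPM. The distances were 0.02, 0.028 and 0.036. Snapc4 had 18.2 and 18.8 CPM in control against 23.6 and 23.6 CPM. Ythdf1 lay at a distance of 0.07, with 23 genes nearer to Ythdf2, whereas 2372 genes were nearer than Ythdf3, 4200 nearer than Ythdc1 and 7011 nearer than Ythdc2. A likeness over 4 libraries is a description only.

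The other genes of the m6A pathway are given for context. Of 49 listed genes other than the readers, all were tested, and 0 were called higher and 0 lower by edgeR, against 0.393% of all genes, a share at which a list of this size would rarely hold a call. Of the 49, 31 had a log2 fold change above 0, against 50.3% of all genes tested. Their median was 0.09. At an unadjusted p under 0.05 there were 4 higher (Wtap, Mov10, Cnot3 and Cnot11) and 1 lower (Cnot1), or 10.2%, against 14.1% of all genes. A DESeq2 Wald test called 0 of the 47 to which it gave an adjusted p, against 1.32% of all such genes. Among 12 methyltransferase genes, 10 had a log2 fold change above 0 (median 0.12), and the smallest p was that of Wtap, the subunit that places the methyltransferase in nuclear speckles, with 16.4 and 18.7 CPM in control against 23.3 and 21.6 CPM (log2 fold change 0.35, SE 0.15, edgeR adjusted p 0.325). The 2 erasers were Fto and Alkbh5, and Alkbh5 had 76.8 and 54.7 against 79.5 and 71.0 CPM (0.20, SE 0.16, edgeR adjusted p 0.645). Among 10 other RNA-binding proteins linked to m6A, the smallest p was that of Fxr1, with a log2 fold change of -0.21 (SE 0.12, edgeR adjusted p 0.454).

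Partners of individual readers were also without a call in the reported fit. Among 17 genes of decay factors that work with YTHDF2, 9 had a log2 fold change above 0 (median 0.04). The smallest p was that of Cnot1, the scaffold of CCR4-NOT through which YTHDF2 reaches the deadenylase. Cnot1 had 696 and 656 CPM in control against 531 and 495 CPM, with no overlap (log2 fold change -0.40, SE 0.12, edgeR adjusted p 0.162). It did not pass the threshold, nor did it with library totals alone or with the GC offset. With the replicate number as a block it passed, but there 1017 of the 21132 genes tested passed, in place of 83. Cnot1 also passed without control replicate 1 and without control replicate 2, but not without either vKO replicate. Leaving out a control leaves 1 library in that group, and many more genes passed there too. Among 5 partners of YTHDC2 the smallest p was that of Mov10, an RNA helicase (log2 fold change 0.41, SE 0.14, edgeR adjusted p 0.229), and among 4 partners of YTHDC1 it was that of Safb (0.19, SE 0.15, edgeR adjusted p 0.617). The lists of partners were chosen with earlier results of these data known.

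**Figure D5:**
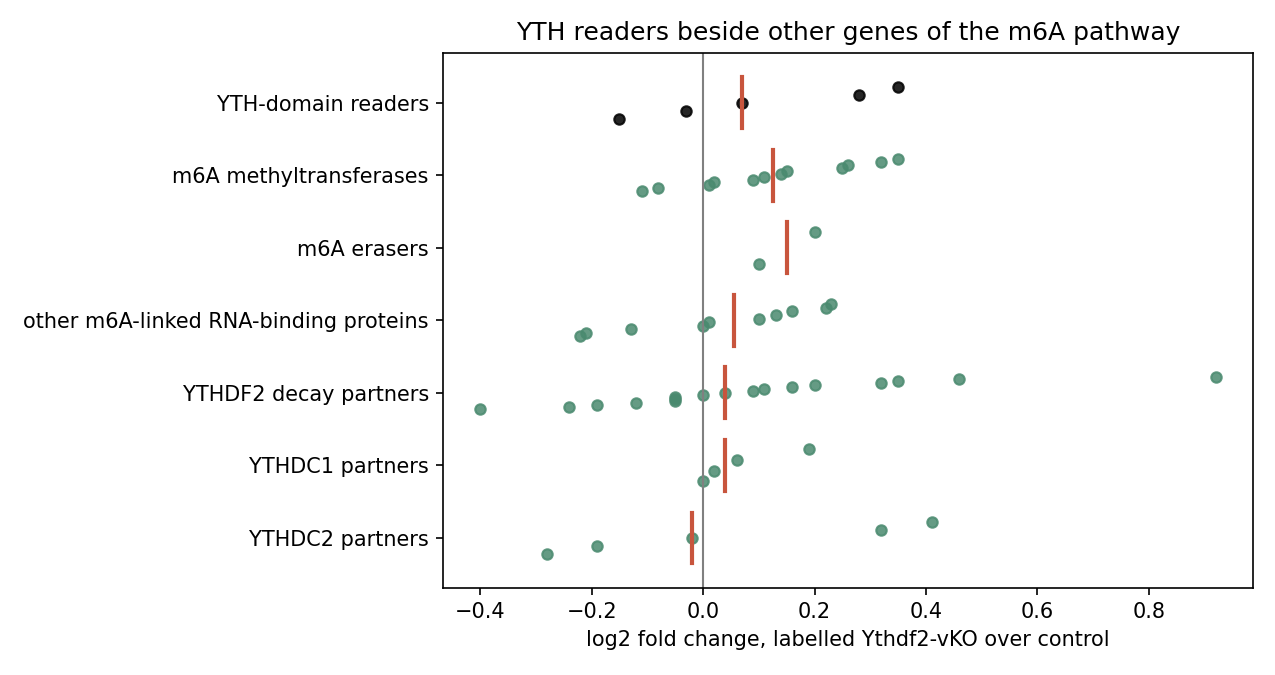
Log2 fold change, vKO-labelled libraries over control (x axis), of the 5 readers (black) and of each listed pathway gene (green), by list, with a red line at each median. The medians of the 6 other lists lie between -0.02 and 0.15, and Ythdf2 (0.35) is exceeded by 4 of the 49 other genes.

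Markers of testis cell types were measured in the same libraries. In whole testis, fewer cells of a type and less RNA per cell cannot be told apart. All 8 Sertoli cell markers had an unadjusted p under 0.05 and a log2 fold change above 0, against 7.65% of all genes tested. Of these 8 markers 1 (Wt1) was called higher by edgeR at an adjusted p under 0.05, against 0.279% of all genes. The summed level of Sertoli markers was 1011 to 1114 CPM in control and 1332 to 1522 CPM in the vKO-labelled libraries. All 8 spermatogonia markers had a log2 fold change above 0, against 50.3% of all genes tested. Their sums were 133 to 135 against 150 to 169 CPM. All 5 Leydig cell markers and all 4 tested erythrocyte markers were also above 0. The Leydig sums overlapped, with 244 and 299 CPM in control against 405 and 294 CPM. Markers of spermatocytes (2 of 6 above 0) and round spermatids (2 of 5) went both ways. Of 6 elongating spermatid markers 0 were above 0, with sums of 6881 to 8259 against 6223 to 6300 CPM. At an unadjusted edgeR p under 0.05, 4 of these 6 were lower, against 14.1% of all genes in either direction. Higher were 3 of 8 spermatogonia, 3 of 5 Leydig, 3 of 4 erythrocyte, 1 of 4 macrophage and 1 of 4 endothelial markers. No marker of these lists was lower at that p. Of the 9 marker lists other than Sertoli cells, spermatogonia and elongating spermatids, none held a called gene. Single genes without overlap between the groups made up 45.3% of all genes tested, so non-overlap is common with 2 against 2 libraries. Summed levels without overlap were found for endothelial cells (7.14 to 8.37 against 11 to 12.1 CPM), erythrocytes (26.7 to 32.3 against 39.0 to 42.0 CPM), general germ cell markers (475 to 502 against 439 to 448 CPM) and the single tested epididymis gene (1.16 to 1.3 against 0.853 to 1.01 CPM). No Sertoli, spermatogonia, spermatid, endothelial, erythrocyte or germ cell marker was at 0 in any library. Their part in the values of Ythdf2 and Ythdf1 was not tested.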

How the data were processed

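Testis RNA was depleted of ribosomal RNA and made into directional libraries, per the labels' protocols. HISAT2 2.1.0 and HTSeq 0.6.1p1 are named in the submitters' processing notes, without settings, and the genome build and the counting's use of strand are not given in the sources used here. The authors deposited a table of raw counts, 1 column for each library, per the file headers. The deposited table also holds the authors' mean normalized count (a signal), log2 fold change with its standard error, test score (stat), p-value and adjusted p-value, under DESeq2 column names per the file headers. Of 25265 identifiers, 25261 were found in GENCODE M21 (GRCm38), which gave positions, lengths, GC content and transcript sequences. In the symbol column, 26 symbols had become dates and were restored by identifier.

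Counts were tested in R 4.3.3 by edgeR 4.0.16 (built on limma 3.58.1), after filterByExpr, TMM scaling, a robust quasi-likelihood fit of genotype over the 4 libraries and a prior count of 0.125. P-values were adjusted by Benjamini-Hochberg over the 21132 genes tested. The standard error is the absolute log2 fold change divided by the square root of F. The spread shared by all genes, as a biological coefficient of variation, came to 13.5%. The fit was checked on simulated counts with known changes. Transcripts were compared with blastn 2.17.0 and coding sequences aligned with mafft 7.526. Counting errors assume independent reads, which carry no molecular identifiers. The alternatives covered DESeq2 1.42.0 size factors and Wald test, other filters and scalings, a GC offset and a replicate block. They also covered a fit without robust estimation, a prior count of 2, another length and leaving out each library.

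Named are the 5 readers, the pathway gene with the smallest p in each list and any called one, the 3 genes most like Ythdf2, and genes that overlap a reader or are at least 90% identical to it over 300 bases. The members, lists and rule were chosen with earlier results of these data known.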

Additional observations from a re-analysis of the deposited data

How the results depend on the processing

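None of the 5 readers passed an adjusted p of 0.05 under any of the 14 alternatives run for each. Among these, a prior count of 2 could not change the p-value of the reported fit. The log2 fold change ran from 0.31 to 0.41 for Ythdf2 (adjusted p 0.0636 to 0.866), from 0.24 to 0.34 for Ythdf1, from -0.04 to 0.18 for Ythdf3, from -0.10 to 0.06 for Ythdc1 and from -0.27 to -0.03 for Ythdc2. The sign of Ythdc1 was reversed with library totals alone (0.03), with the GC offset (0.05) and with the GC offset and replicate block (0.06), and leaving out 1 library gave -0.10 to 0.03. That of Ythdf3 ran from -0.04 to 0.18 with 1 library left out. Differences in the Ythdf2 ratios and share kept their sign without each library. This was fixed in advance, because both vKO-labelled libraries lay above both controls in each of them. Adding pseudogene counts to Ythdf2 was not run, since neither pseudogene was among the genes of the deposited count table.

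Both groups use replicate numbers 1 and 2. Deviations of the replicate 1 libraries from their group means correlated at 0.0932 over 17827 genes. Those of replicate 2 are their mirror image and add nothing. This value by itself gives no ground for pairing, but it cannot tell whether same-numbered libraries shared a batch. With the replicate block, Ythdf2 had a log2 fold change of 0.35 (edgeR adjusted p 0.0657). The other readers had 0.28 (Ythdf1), 0.07 (Ythdf3), -0.03 (Ythdc1) and -0.15 (Ythdc2). With this block 1017 of the 21132 genes tested were called, in place of 83. Among them were 2 of the 49 pathway genes (Cnot1 and Cnot3), a share no higher than that over all genes. Over all genes, library totals alone gave 218 calls and moved the median log2 fold change to 0.0674, the GC offset 137 calls, the GC offset and replicate block 379, and the DESeq2 Wald test 217. The share of higher calls was 71.1%, against 83% with library totals alone, 54.7% with the GC offset and 48% with the GC offset and replicate block. Leaving out 1 library gave 35 (without vKO replicate 1) to 1512 calls (without control replicate 1; 1077 without control replicate 2), and 0 to 7 among pathway genes. Without control replicate 1, the share of pathway genes called was above that over all genes. The pathway genes called there were Alkbh5, Cnot1, Cnot3, Pcif1, Prrc2a, Safb and Upf1. Without control replicate 2, where only Cnot1 was called, the share was below that over all genes. Such fits leave 1 library in a group and assume that it varies like the others. The cause was not tested.

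Per kb of the longest transcript, control levels were 10.2 for Ythdf1, 12.7 for Ythdf2, 5.72 for Ythdf3, 13.0 for Ythdc1 and 3.95 for Ythdc2.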
